A study of Mus musculus with 2 samples.

Results

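The cells described here are 1000 macrophages and monocytes from mouse tumours with the highest combined level of Mgl2, Mrc1, Cdh1, Matk and Cxcl14, taken from 9655 candidate cells (10.4%) among 13837 barcodes in all. Candidates, called base cells, held at least 200 detected genes, at most 10% mitochondrial UMIs (unique molecular identifiers, each marking 1 captured RNA), fewer than 2 UMIs of the mCherry construct and at least 1 UMI of Csf1r, the receptor for macrophage colony-stimulating factor. Each base cell was scored by the mean over the 5 genes of the natural log of 1 plus UMIs per 10000, and the 1000 highest scores over both libraries were kept. The members were therefore chosen by measured values, and the levels of the 5 genes in them are a description, not a finding. The last member scored 0.411 and the first cell left out also 0.411, with 500 base cells within 0.05 of that limit, while 5329 base cells scored 0. The members are the upper end of a continuous score, not a separate type.

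The study sorted mCherry+ cells, cells carrying a red fluorescent protein, from pooled tumours of mice of 2 ages, young (4 weeks old) and adult (24 weeks old), both labelled d7. Its title concerns cross-presentation of tumour antigen to CD8 T cells, the display of engulfed antigen by phagocytes, in young hosts. Each age is 1 library of polyadenylated RNA made with version 2 of the 10x Genomics droplet kit, so differences between ages have no replicate check, no test was possible, and age cannot be told apart from library. The labels give no strain, sex, tumour model, treatment or source of the mCherry gene, and since tumours were pooled the number of animals behind each value is unknown. Sequencing gave 84862471 UMIs over 7558 young barcodes and 70988070 UMIs over 6279 adult barcodes. All intervals are 95% and cover counting error only, not the spread between animals.

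Alternatively activated macrophages are those shaped by the cytokines IL-4 and IL-13, which act through the IL-4 receptor and the transcription factor STAT6 and are known for tissue repair, endocytosis and recruitment of type 2 immune cells. Mgl2 (CD301b) is a C-type lectin that binds galactose-bearing sugars, Mrc1 (CD206) is the mannose receptor, Cdh1 is E-cadherin, an adhesion molecule that IL-4 induces in macrophages, Matk is a kinase that restrains Src-family kinases, and Cxcl14 is a chemokine. In tumours such macrophages stand beside monocytes newly arrived from blood, which carry Ly6c2 and Plac8.

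On mm10 the genes of the score lie apart, on 5 chromosomes. Mgl2 (ENSMUSG00000040950) spans 70130329 to 70137550 on the plus strand of chromosome 11, and Mrc1 (ENSMUSG00000026712) spans 14229392 to 14332057 on the plus strand of chromosome 2. Cdh1 (ENSMUSG00000000303) spans 106603351 to 106670246 on the plus strand of chromosome 8, Matk (ENSMUSG00000004933) 81252935 to 81263365 on the plus strand of chromosome 10, and Cxcl14 (ENSMUSG00000021508) 56288643 to 56296551 on the minus strand of chromosome 13. The counts come from the 3' end of transcripts and do not tell isoforms apart. Clec10a, the close paralog of Mgl2, lies next to it on chromosome 11 at 70156197 to 70170834, and reads shared by the pair make both counts uncertain.

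The members were mostly adult cells. Young members numbered 141 of 5390 base cells, or 2.62%, with an exact binomial interval of 2.21 to 3.08%. Adult members numbered 859 of 4265, or 20.1% (18.9 to 21.4%), so that the adult share was 7.70 times the young share (6.47 to 9.16). The adult share was the higher under each of 8 other ways of choosing cells, but the size of the difference was not fixed, since it ran from 3.47-fold with every cell thinned to 3000 UMIs to 19.1-fold with only 500 members. Members held somewhat more RNA than other base cells, with medians of 11972 UMIs in young and 12894 in adult members against 10299 and 9582.5 in the others. Among the 111 barcode sequences present in both libraries, 13 belonged to a member, and none was a member in both.

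The 5 genes did not contribute alike in the libraries. Among young members 11.3% of cells had a UMI of Mgl2, 35.5% of Mrc1, 34.0% of Cdh1, 34.8% of Matk and 83.7% of Cxcl14. Among adult members the shares were 48.3% for Mgl2, 50.1% for Mrc1, 65.3% for Cdh1, 56.1% for Matk and 50.8% for Cxcl14. Cxcl14 made up 59.5% of the summed score of young members and 25.9% of that of adult members, and Mgl2 4.36% and 20.5%. Of the 141 young members 43 had UMIs of a single gene of the score, which was Cxcl14 in 34 of them. Of the 859 adult members 71 had a single gene, and 32 had all 5 against 1 young member. Young members were thus for the most part Cxcl14-bearing cells, and adult members more often carried several of the genes.

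The same contrast was present in all base cells, before any were ranked. Mgl2 was detected in 1.21% of young and 16.2% of adult base cells, Mrc1 in 6.90% and 19.7%, Cdh1 in 6.49% and 26.1%, and Matk in 8.61% and 27.9%. Cxcl14 was detected in 15.2% and 20.4%, the closest pair of shares among the 5. Low shares can come from RNA free in the suspension, so shares were also taken in mCherry-rich cells, which had no Csf1r UMI and at least 20 of mCherry and were deeper than base cells (median 25044 UMIs in young and 28924 in adult). There Mgl2 was found in 0 of 200 young cells and 2.21% of 272 adult cells, and the other genes in at most 4 young cells and between 2.94 and 4.78% of the adult ones. Within each library the shares of base cells with each of the 5 genes were above those of the mCherry-rich cells. For Mgl2 in the young library this holds for the counts alone, as 0 of 200 mCherry-rich cells allows a share of up to 1.5%, above the 1.21% of base cells.

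**Figure D1:**
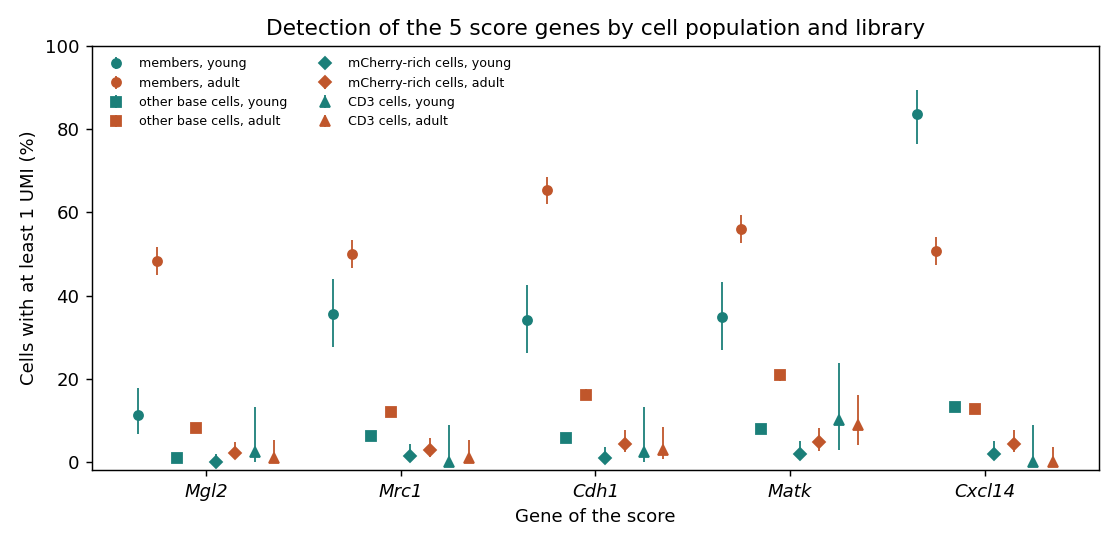
Percent of cells (vertical axis) with at least 1 UMI of each gene of the score (horizontal axis), for members, other base cells, mCherry-rich cells and CD3 cells (at least 2 UMIs of CD3 genes and no Csf1r), young in green and adult in orange. Bars are exact binomial 95% intervals. Mgl2 was the gene least often detected in young members (11.3%) and Cxcl14 the most often (83.7%), while in adult members the shares lay between 48.3 and 65.3%.

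Whether the 5 genes occur in the same cells was read from all base cells, as the number of cells with both genes of a pair over the number given by their separate shares. In adult base cells Mgl2 and Cdh1 were found together 2.18 times as often (Poisson interval 1.97 to 2.41), Mgl2 and Mrc1 2.0 times (1.77 to 2.26), Mrc1 and Cdh1 1.74 times (1.57 to 1.92), Mgl2 and Matk 1.63 times (1.45 to 1.82) and Cdh1 and Matk 1.53 times (1.40 to 1.68). The 4 pairs with Cxcl14 gave 1.15 to 1.36 times. Deep cells detect every gene more often, so each cell was also thinned to 3000 UMIs. The adult pairs with Cxcl14 then gave 0.78 to 1.22 times with intervals that all included 1, and Mrc1 with Matk 0.91 times (0.63 to 1.27). Mgl2 with Mrc1 gave 2.30 times (1.76 to 2.96), Mgl2 with Cdh1 1.90 times (1.46 to 2.42), Mgl2 with Matk 1.78 times (1.36 to 2.29), Mrc1 with Cdh1 1.76 times (1.36 to 2.25) and Cdh1 with Matk 1.49 times (1.16 to 1.89). In young base cells Mgl2 with Cdh1 gave 4.26 times, from 18 cells (2.53 to 6.74). Thinned young cells held at most 11 cells per pair and gave no usable value. At equal depth Mgl2, Mrc1 and Cdh1 were thus found together in adult cells more often than their shares give, as was Matk with Mgl2 and with Cdh1. A departure from the separate shares was not detectable there for Cxcl14 with any of the other 4 or for Mrc1 with Matk. The 5 genes were chosen with earlier results of these data known. The values therefore describe the chosen genes and do not test whether they belong together.

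**Figure D2:**
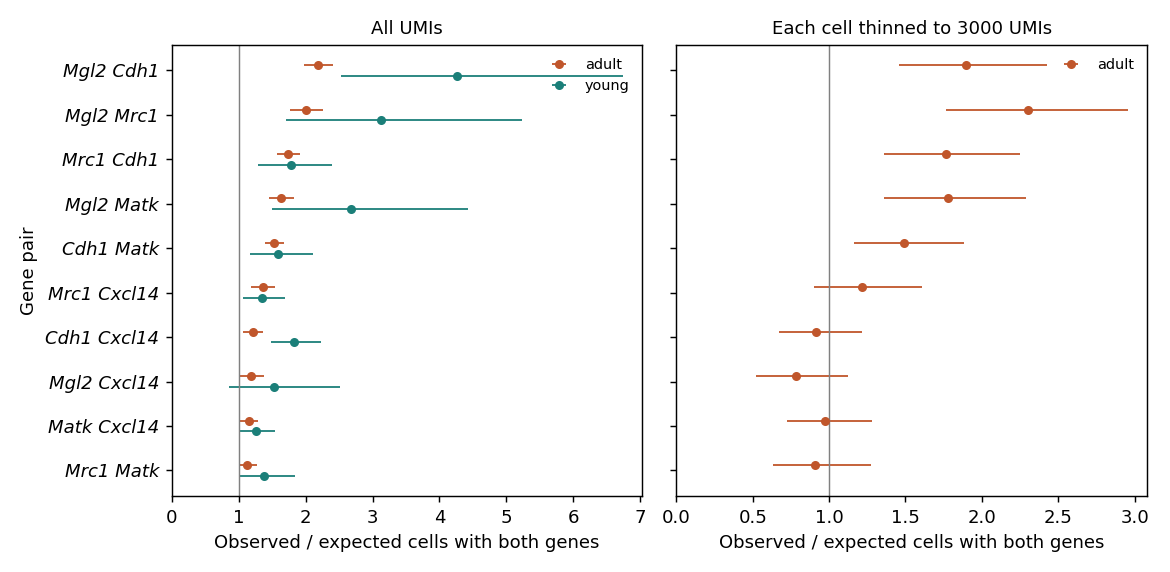
Number of base cells with UMIs of both genes of a pair, divided by the number expected from the separate shares (horizontal axis, linear), for the 10 pairs of score genes (vertical axis), with all UMIs (left, young green and adult orange) and with each adult cell thinned to 3000 UMIs (right). Bars are Poisson 95% intervals of the observed number and the grey line marks 1. The thinned pairs of Mgl2, Mrc1 and Cdh1 lie at 1.76 to 2.30 and those with Cxcl14 at 0.78 to 1.22. The values describe genes chosen with earlier results of these data known and are no test.

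The label of alternatively activated macrophage was checked against other genes. Macrophage markers were present. Adgre1 (F4/80) was detected in 48.2% of young and 51.0% of adult members. C1qa, a complement component of mature macrophages, stood at 1864 UMIs per 1000000 (CPM) in young and 1813 CPM in adult members. None of the 13 macrophage and monocyte markers differed by 1.5-fold between members and other base cells. Over all genes only 0.999% were higher and 1.07% lower by that limit, so this count says little. Csf1r, among the 13, was also required of every base cell. Arg1, the arginase of alternatively activated cells, was detected in 97.9% of young and 98.4% of adult members but also in 97.3% and 95.8% of other base cells. Chil3 (Ym1) stood at 114 CPM in young members against 122 in other cells, and at 381 against 367 CPM in adult. Retnla (RELMα) was found in 1 young and 3 adult members, and Cd163 in none of 1000, which allows up to 2.13% of young and 0.349% of adult members with a UMI and sets no limit on cells that express the gene. The receptor Il4ra was at 185 against 160 CPM in young and 131 against 127 CPM in adult. None of 12 genes of IL-4 signalling passed 1.5-fold, against the same 0.999% and 1.07% of all genes. The alternative activation name thus rests on the genes of the score and a few others, and the cells are called members here.

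Dendritic and Langerhans cells can also carry Mgl2 or Cdh1. Of 18 dendritic cell markers 6 reached 10 CPM. Most of the defining genes looked at were rarely detected in members. Flt3 was found in 0.71% of young and 0.70% of adult members against 0.17% and 0.26% of other base cells. Zbtb46 was found in 0.71% and 0.35% against 0.34% and 0.35%, and Xcr1 in 0 of 141 and 0.58% against 0.59% and 0.32%. Cd209a was found in 0 of 141 and 0.35% against 0.038% and 0.12%. Kit was found in 2.13% and 1.16% against 0.50% and 0.68%, and Irf4 in 1.42% and 2.79% against 0.63% and 0.82%. These shares rest on few cells. Clec9a, a receptor for dead cells on cross-presenting dendritic cells, was detected more often. Its shares were 7.09% of young members (3.45 to 12.7%) and 3.73% of adult members (2.56 to 5.22%) against 2.25% and 2.0% of other base cells. Ccr7, a homing receptor of migratory dendritic cells, was detected in 1.42% and 3.14% of members against 2.10% and 2.61% of others. The part of dendritic cells in the member values was not tested. Cd207, the langerin gene of Langerhans cells, was found in 0 young and 1 adult member. Epcam was found in 0.71% and 1.16% of members against 0.095% and 0.23% of other base cells. Summed over 12 T and NK cell genes members held 12.4 CPM in young and 20.6 in adult against 51.9 and 40.7 CPM in other base cells, and over 9 fibroblast and endothelial genes 1.76 and 6.01 against 4.98 and 24.6 CPM. Over 9 neutrophil genes the sums were 341 and 205 against 250.7 and 393 CPM. The higher young sum rested on few cells, as 140 of 148 young UMIs of S100a9 lay in 1 member. Without the member with most UMIs of each gene the sums were 187.1 CPM in young and 187.4 CPM in adult members. No cell was taken from the other base cells there, so the member sums could only fall.

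Against the other base cells of their own library the members differed in few genes beyond the score. Among 2534 genes with 50 CPM or more, those 2-fold or more above the other cells in both libraries numbered 3 (0.118% of genes tested), namely Ccl17, Stmn1 and Ccl24. Those 2-fold or more below numbered 2 (0.0789%), namely Ly6c2 and Isg20. The cells were chosen by expression, so these values describe which other genes went with the score. The median log2 ratio of members over others across all genes was 0.01 in young and 0.02 in adult, so the scale itself did not shift.

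Chemokines led the list in the adult library. Ccl24 (eotaxin-2, ENSMUSG00000004814, chromosome 5, 135569937 to 135573049, minus strand), which draws eosinophils, stood at 2092 CPM in adult members and 731 CPM in other adult cells, 2.86-fold (2.81 to 2.91), and was detected in 60.4% against 40.8% of cells. In young cells Ccl24 stood at 132 against 32.7 CPM, but 174 of its 224 UMIs lay in 1 member. Without that cell the young members held 29.4 CPM, and the log2 ratio turned from 1.86 to -0.13. Ccl24 was also detected in 36.0% of adult mCherry-rich cells, at 16.9 CPM, and at 3000 UMIs per cell in 4.44% of these against 44.4% of adult members and 25.2% of other adult cells.

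Ccl17 (TARC, ENSMUSG00000031780, chromosome 8, 94810453 to 94812036, plus strand), a ligand of CCR4 on T helper and regulatory T cells, stood at 198 CPM in adult members against 34.8 CPM in others, 5.68-fold (5.30 to 6.10). It was confined to few cells, 8.96% of adult members against 3.64% of others. Of 52 young UMIs 43 lay in 1 member, and the log2 ratio of 1.34 turned to -0.45 without it. The higher summed levels of Ccl24 and Ccl17 in members were thus measured in adult cells, and in young cells they rested on single cells. The share of young cells with Ccl17 was nevertheless higher in members, 6 of 141 or 4.26% (1.58 to 9.03%) against 0.93% (0.69 to 1.23%) of others. For Ccl24 the young shares were 6.38% (2.96 to 11.8%) and 4.32% (3.79 to 4.91%), with intervals that overlapped. At equal depth the young shares were 2.33% against 0.477% for Ccl17 and 3.88% against 1.97% for Ccl24, from few members. Of 19 chemokines tested at 10 CPM, 3 were 1.5-fold higher on average and higher in both libraries (Ccl17, Ccl24 and Pf4; 0.999% of all genes were so called) and 3 lower (Ccl2, Ccl4 and Ccl5; 1.07% of all genes). Without the member with most UMIs of each gene in each library none was higher and 8 were lower. No cell was taken from the other base cells, so these ratios could only fall, and the rise from 3 to 8 is no sign of lower levels.

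The promoters of the genes that define or accompany the members are shown because STAT6, which relays IL-4, is known to favour the palindrome TTCNNNNGAA, and other STAT factors TTCNNNGAA. Windows from 250 bases before to 50 after the start were found in the RefSeq table (GRCm38.p6) for 9 of 14 genes looked for. Each motif reads the same on both strands, and over 32851 such windows of all genes 6.95% held TTCNNNNGAA and 8.30% TTCNNNGAA. The 250 bases before the start of Mgl2 (chr11:70130107-70130356, plus strand), Mrc1 (chr2:14229164-14229413, plus strand), Ccl17 (chr8:94810203-94810452, plus strand) and Cxcl14 (chr13:56296552-56296801, minus strand) follow, 5′ to 3′, with matches to either motif in capitals.
Mgl2: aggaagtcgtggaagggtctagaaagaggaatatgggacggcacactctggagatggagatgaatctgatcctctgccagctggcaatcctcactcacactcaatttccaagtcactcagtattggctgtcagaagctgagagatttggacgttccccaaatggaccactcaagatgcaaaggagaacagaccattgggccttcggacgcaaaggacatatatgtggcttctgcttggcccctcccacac
Mrc1: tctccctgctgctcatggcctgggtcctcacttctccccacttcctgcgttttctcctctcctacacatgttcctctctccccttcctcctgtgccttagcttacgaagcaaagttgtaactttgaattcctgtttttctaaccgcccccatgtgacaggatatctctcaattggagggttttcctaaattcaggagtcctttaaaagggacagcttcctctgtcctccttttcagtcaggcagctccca
Ccl17: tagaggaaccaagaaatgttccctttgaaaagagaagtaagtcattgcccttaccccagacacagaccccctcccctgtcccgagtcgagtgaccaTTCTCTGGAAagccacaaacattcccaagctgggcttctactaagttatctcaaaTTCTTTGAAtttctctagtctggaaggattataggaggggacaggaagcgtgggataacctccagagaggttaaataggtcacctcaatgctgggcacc
Cxcl14: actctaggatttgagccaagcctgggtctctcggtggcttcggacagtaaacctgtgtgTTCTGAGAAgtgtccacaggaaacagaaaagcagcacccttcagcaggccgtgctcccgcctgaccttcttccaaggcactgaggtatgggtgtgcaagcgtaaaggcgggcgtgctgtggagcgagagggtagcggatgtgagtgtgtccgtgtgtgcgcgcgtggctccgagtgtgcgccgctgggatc
Ccl17 held both motifs, with first bases at -154 and -99 from the start, Cxcl14 held TTCNNNGAA at -191, and neither was found in the windows of Mgl2, Mrc1 and Matk. Retnla held TTCNNNNGAA at -145 and Chil3 TTCNNNGAA at -172, and 1 of the 3 windows of Isg20, a gene lower in members, held both. The 2 windows of Ly6c2 held neither. A match is a string of letters and no measure of binding.

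Summed over members, genes of dividing cells were higher in both libraries, with the highest levels in a small cluster of members. Stmn1 (stathmin, ENSMUSG00000028832, chromosome 4, 134468320 to 134473843, plus strand), which binds tubulin and is abundant in cycling cells, stood at 98.8 against 16.9 CPM in young, 5.86-fold (4.95 to 6.92), and at 56.6 against 19.1 CPM in adult, 2.96-fold (2.66 to 3.30). It stayed at log2 ratios of 1.74 and 1.27 without its cell with most UMIs. Of 16 genes of DNA replication and mitosis measured, 8 were higher and 0 lower by 1.5-fold, against 0.999% and 1.07% of all genes. The list had a median log2 ratio of 0.66 against 0.02 over all genes. Among the 8 were Ube2c, which marks mitotic proteins for destruction (1.72), Birc5 (survivin, 1.38) and Top2a (topoisomerase 2, 1.01). In the 50 members of cluster 4, described below, Stmn1 stood at 619 CPM against 13.1 CPM in the other members. Ube2c stood there at 288 against 4.12 CPM, Birc5 at 296 against 1.90 and Top2a at 140 against 3.55 CPM. The other base cells were not split in this way. Without the cell with most UMIs of each gene, 5 of 13 were higher, and the list median was 0.20 in young and 0.54 in adult. The mitotic gene Mki67 was detected in 6.38% of young and 6.52% of adult members against 3.26% and 3.29% of other base cells. Members also held more UMIs per cell, and at 3000 UMIs per cell Stmn1 was found in 7.75% of young and 7.13% of adult members against 2.48% and 3.5% of others. Mki67 at that depth was found in 0.775% of young and 1.67% of adult members against 0.954% and 0.882% of others, so its higher share in young members was not seen at equal depth. When the score itself was taken at that depth, which picks other cells, the log2 ratio of Stmn1 was 0.93. mCherry-rich cells of the young and adult libraries held Stmn1 in 66.0% and 69.1% of cells, and 30 of 200 and 52 of 272 held Mki67; the part of such cells or their RNA in the member values was not tested.

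Inflammatory monocyte markers were lower in members, above all in the adult library. Ly6c2, the Ly6C antigen of inflammatory monocytes, stood at 850 CPM in young members against 1776 in others, 2.09-fold lower (1.99 to 2.20), and at 465 against 1311 CPM in adult, 2.82-fold lower (2.74 to 2.90). Its near-identical copy Ly6c1 makes the counts uncertain. Plac8, another gene of fresh monocytes, stood at 1642 against 2541 CPM in young, 1.55-fold lower (1.49 to 1.61), and at 952 against 3002 CPM in adult, 3.16-fold lower (3.09 to 3.22). Of 11 monocyte markers measured 6 were 1.5-fold lower (1.07% of all genes were), among them Ly6c2, Plac8 and Ifitm6. In the same list 1 was higher, Fn1 (0.999% of all genes were), and the median was -0.13 in young and -0.82 in adult. Fn1 (fibronectin) stood at 597 against 331 CPM in young and 1222 against 812 CPM in adult members and others.

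Interferon-induced genes were lower as well. Isg20, an exonuclease induced by interferon, stood at 25.3 against 56.8 CPM in young, 2.24-fold lower (1.66 to 3.11), and at 16.6 against 48.8 CPM in adult, 2.93-fold lower (2.53 to 3.43). Of 25 interferon response genes 7 were lower by 1.5-fold (1.07% of all genes were) and 0 higher, with a median log2 ratio of -0.45. Among the 7 were Rsad2 (viperin, -0.85), Isg15 (a ubiquitin-like modifier, -0.80) and Ifit3 (an RNA-binding antiviral protein, -0.80). Of 14 inflammatory macrophage genes 4 were lower (Slpi, Acod1, Saa3 and Il1rn), against the same 1.07% of all genes, and 0 higher. Their list had a median of -0.43. Slpi, a protease inhibitor, stood at 431 against 597 CPM in young and 156 against 540 CPM in adult members and others, and Acod1, which makes itaconate, at 194 against 333 and 158 against 281 CPM. Of 6 iron and heme genes 1 was lower, Hmox1 (heme oxygenase, -0.72).

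Among genes of antigen presentation 1 of 9 of class II and 0 of 14 of class I were past 1.5-fold in members. Over all genes 0.999% were higher and 1.07% lower by that limit. The class II list had a median log2 ratio of 0.36, and its summed level was 21002 CPM in young and 28535 CPM in adult members against 17435 and 22347 CPM in others. H2-DMb2, the gene that passed 1.5-fold and a chain of the H2-DM peptide editor, stood at 53.5 against 26.2 CPM in young, 2.05-fold (1.64 to 2.53), and at 85.7 against 38.6 CPM in adult, 2.22-fold (2.04 to 2.41). H2-Ab1 and H2-Eb1, beta chains of the class II molecules, had mean log2 ratios of 0.38 and 0.39. Class II levels were uneven among members, and highest in the 126 cells of cluster 3, described below. H2-Ab1 stood there at 11845 CPM against 4148 CPM in the other members, and H2-Eb1 at 7635 against 2369 CPM. H2-DMb2 stood there at 261 against 51.7 CPM. The other base cells were not split in this way. The class I list had a median of -0.10, and the costimulatory list -0.18 with 0 of 11, Cd86 at -0.25 and Cd40 at -0.51.

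Some genes of the matrix and of cholesterol synthesis were 1.5-fold higher in members, as were 0.999% of all genes, while 1.07% of all genes were lower. Of 16 matrix genes 3 were higher, Fn1, Spp1 (osteopontin, 528 against 383 CPM in young and 1450 against 842 CPM in adult) and Mmp12 (macrophage elastase, 197 against 109 and 271 against 153 CPM), and 1 was lower, Mmp9. Of 14 cholesterol synthesis genes 3 were higher (Idi1, Fdps and Scd2; median 0.32). Of these, 1 matrix gene (Fn1) and 1 cholesterol gene (Scd2) were still 1.5-fold higher without the cell with most UMIs of each gene, and the cholesterol median was 0.019 in young and 0.34 in adult. Cd81, a tetraspanin, stood at 87.7 against 39.8 CPM in young, 2.20-fold (1.86 to 2.60), and at 93.0 against 44.2 CPM in adult, 2.11-fold (1.95 to 2.28). Ptgs1 (cyclooxygenase 1) was at 15.3 against 4.75 and 16.3 against 5.87 CPM. Glycolysis (0 of 17) and oxidative phosphorylation (0 of 16) had no gene past 1.5-fold in either direction.

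Of the alternative activation list 5 of 19 measured genes were 1.5-fold higher (Retnla, Ccl24, Ccl17, Clec10a and Ptgs1), against 0.999% of all genes. In that list 0 were lower, and the median was 0.30. The genes of the score were not counted in it. Retnla rested on the 1 young cell that held all 116 young UMIs. Without the member with most UMIs of each gene 1 of 18 genes was higher, Ptgs1, and 1 lower. Clec10a then fell just short of 1.5-fold, with log2 ratios of 0.33 in young and 0.84 in adult. Clec10a, the paralog of Mgl2, was detected in 13.3% of adult members against 5.17% of others and in 6.38% against 2.91% of young cells.

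**Figure D3:**
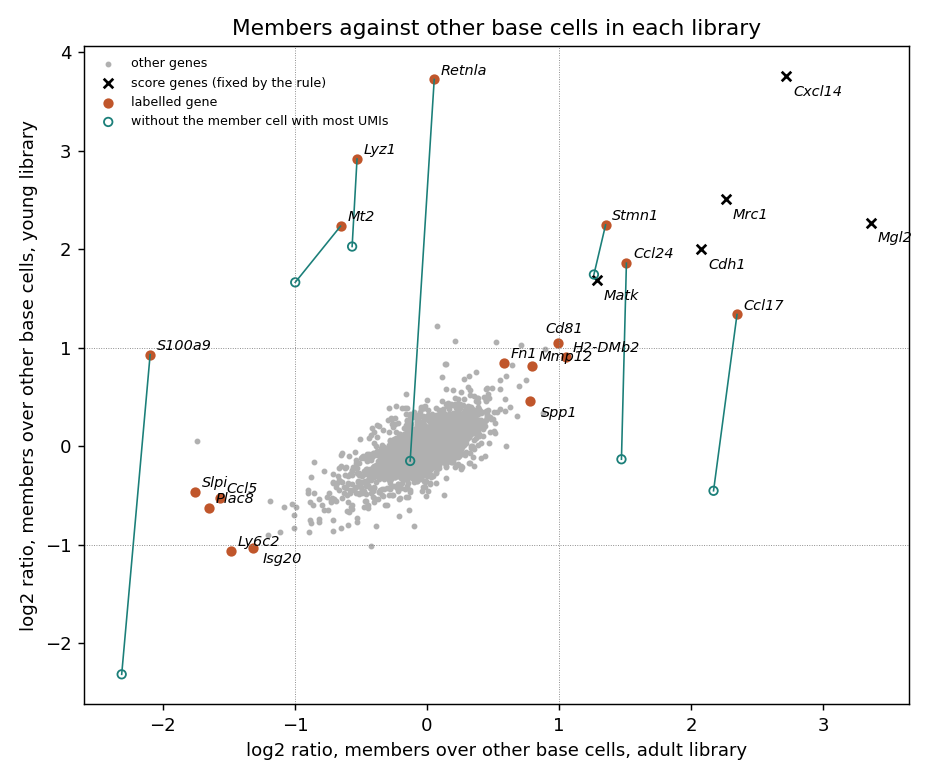
log2 ratio of members over other base cells for genes at 50 CPM or more, in the adult library (horizontal axis) and the young library (vertical axis). Crosses are genes of the score, filled points are labelled genes, and open points joined to them are the same genes without the member cell with most UMIs. Dotted lines mark 2-fold. The young values of Ccl24, Ccl17, Retnla and S100a9 fall below 0 without 1 cell, Stmn1 stays at 1.74 in young and 1.27 in adult, and Ly6c2 and Isg20 lie below -1 in both.

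Levels also followed the rank of the score in part, which was read over the top 250 cells, the next 250, the next 500, the next 1000 beyond the members and all further base cells. In adult cells Ccl24 went from 3027 CPM in the top 250 to 2171, 1441, 1455 and 528 CPM in the later classes, and H2-DMb2 from 114 to 77.0, 73.2, 57.8 and 33.3 CPM. Ly6c2 went the other way, from 306 to 403, 605, 730 and 1474 CPM, and Plac8 from 623 to 776, 1274, 1685 and 3371 CPM. Csf1r stayed between 370 and 397 CPM. Only 10 young cells were in the top 250 and 21 in the next 250, so their values there are uncertain. Ly6c2 in young cells had the same order from the last class of members (925 CPM) to the next 1000 cells (1252 CPM) and all further cells (1821 CPM). Adult Ccl24 and Csf1r thus lay close together on both sides of the limit of membership.

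**Figure D4:**
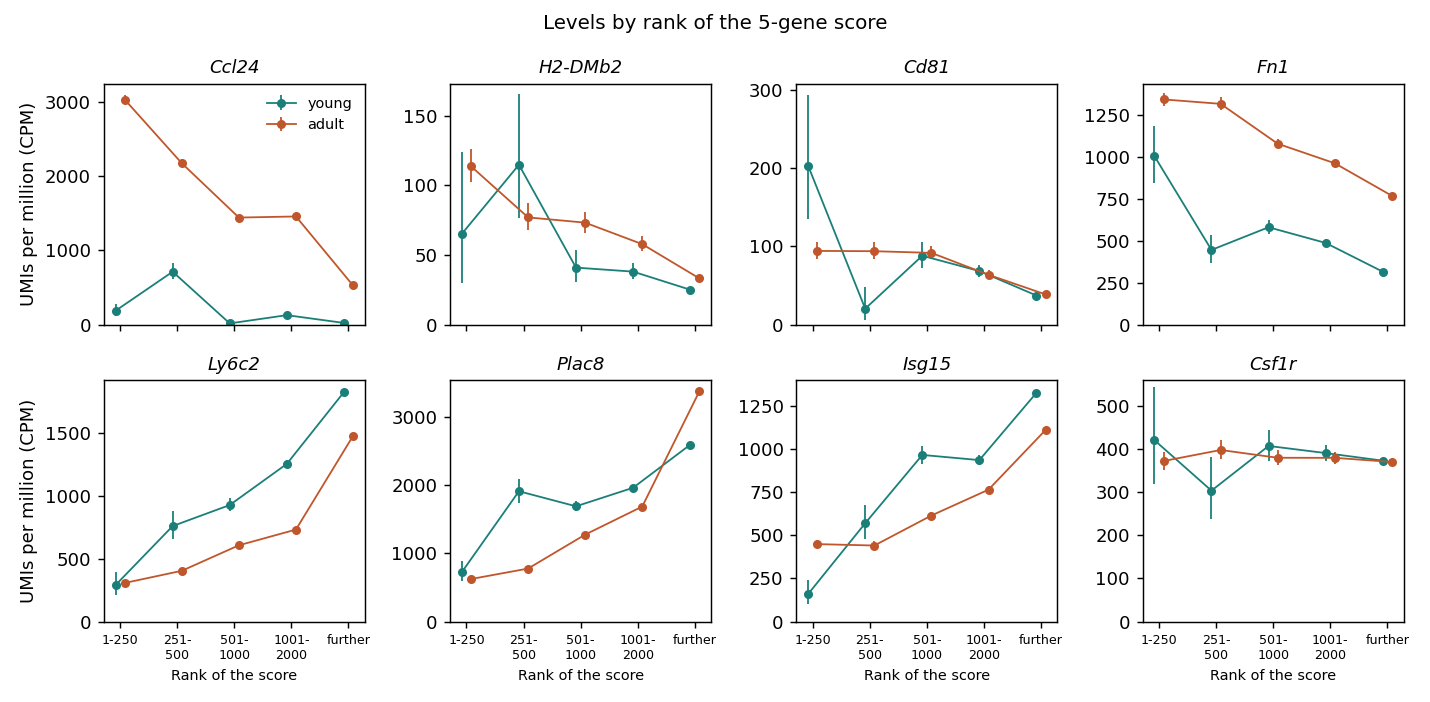
Level in CPM (vertical axes, from 0) of 8 genes by rank of the 5-gene score (horizontal axes), young in green and adult in orange. Bars are Poisson 95% intervals, and members are the first 3 classes. In adult cells Ccl24 runs from 3027 to 528 CPM and Ly6c2 from 306 to 1474 CPM across the classes, and Csf1r lies between 370 and 397 CPM.

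The cells chosen depended in part on Cxcl14. When the score was taken without Cxcl14, an alternative added after the data were seen, 658 of the new 1000 cells were members, of which the young numbered 101 and the adult 899 among the new cells, and Cxcl14 itself was lower in them than in the other base cells (mean log2 ratio -0.25). The ratios of Ccl17 (3.85 against 1.84), Ccl24 (2.86 against 1.69), H2-DMb2 (1.68 against 0.98), Mmp12 (1.57 against 0.81) and the class II list (0.83 against 0.36) were larger than with the 5-gene score. Those of Stmn1 (0.75 against 1.80) and Cd81 (0.49 against 1.02) were smaller. Ly6c2 stayed lower (-1.39 against -1.27). With Mgl2 and Mrc1 alone, Cdh1 had a ratio of 1.01, Matk of 0.42 and Cxcl14 of -0.28, and these 3 genes were then not part of the rule.

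Among themselves the members fell into 5 clusters, made without the genes of the score, which are given by number and leading genes and not named. Cluster 0 (367 cells) was led by Cxcl3, Slpi, Inhba and Il1a, with Plac8, Chil3 and S100a9 further down its leading genes. Plac8 stood there at 1882 CPM against 665 in other members, Ly6c2 at 857 against 361, and Ccl24 at 3209 against 1228 CPM. Cluster 1 (316 cells) was led by Apoe, Cd81 and Gatm, and cluster 2 (141 cells) by Ccl8, Pf4 and Ifit3. Cluster 3 (126 cells) was led by Ccl17, Il1r2, Klrb1b and H2-DMb2, and cluster 4 (50 cells, median 20316 UMIs) by Stmn1, Birc5 and other mitotic genes. The score genes, which the clustering had not used, were spread unevenly. Mgl2 was detected in 84.1% of cluster 3 cells against 27.2 to 53.2% in the other clusters, and Cxcl14 in 86.0% of cluster 4 and 42.9% of cluster 3. Mrc1 was found in 38.1% of cluster 3 and 62.0% of cluster 4, and Cdh1 in 37.6% of cluster 2 and 58.9 to 73.0% elsewhere. In cluster 3, Flt3 was found in 4 cells, Zbtb46 in 3, Cd209a in 3 and Ccr7 in 14 of 126.

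Young and adult members differed in 36 of 2434 genes at 50 CPM or more, 24 being at least 2-fold higher in young members (0.986%) and 12 lower (0.493%). Single cells weighed heavily here, as there were only 141 young members. Without the member with most UMIs of each gene in each library 11 genes were higher, all 11 among the 24, and 14 lower, including all 12. This takes 1 of 141 young but 1 of 859 adult members and leaves the UMI totals whole. It therefore tends to lower the ratios of young over adult members, here and for the genes below. Many of these differences were also present in the other base cells. Of the 12 lower genes 10 were at least 2-fold lower in young other cells too, and of the 24 higher genes 3 were 2-fold higher there.

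The largest differences toward lower levels in young members were in Ccl24 and Ccl17. The chemokine list as a whole did not share this direction, with 3 of 19 genes 1.5-fold lower (Ccl8, Ccl17 and Ccl24), 1 higher (Ccl5) and a median log2 ratio of 0.26. Over all genes 2.34% were 1.5-fold lower and 4.18% higher in young members. For Ccl24 the 132 CPM of young members were 15.9-fold below the 2092 CPM of adult members (13.9 to 18.2), with a log2 ratio of -4.29 in other base cells. The Ccl24 levels were 29.4 and 2038 CPM without the cell with most UMIs in each library, and the log2 ratio went from -3.94 to -5.89. For Ccl17 the 30.6 CPM of young members were 6.46-fold below the 198 CPM of adult members (4.91 to 8.68). Its log2 ratio went from -2.51 to -4.12 without the cell with most UMIs, at 5.29 and 174 CPM, and with the score taken without Cxcl14 the direction turned, to 0.41. The matrix protease inhibitor gene Timp1 was at 30.6 and 134 CPM (4.38-fold lower, 3.32 to 5.89), Chil3 at 114 and 381 CPM (3.34-fold lower, 2.89 to 3.88), and Spp1 at 528 and 1450 CPM (2.74-fold lower, 2.57 to 2.94). Further lower genes were Hspa1a, a heat shock protein with a near-identical copy (log2 -1.25), Fdps of the cholesterol pathway (-1.20), Gatm of creatine synthesis (-1.16), Qpct (-1.11), the PD-1 ligand Pdcd1lg2 (-1.07) and Fn1 (-1.03). Of 19 alternative activation genes 9 were 1.5-fold lower in young members (2.34% of all genes were) and 1 higher, Retnla, and the list had a median of -0.56 in members and -0.31 in other cells. Of 14 cholesterol synthesis genes 6 were lower and 0 higher (median -0.50 in members, -0.47 in others), and of 9 class II genes 3 were lower (H2-DMb1, H2-DMb2 and Ciita; medians -0.47 and -0.43).

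Monocyte and interferon genes were higher in young members. Of 11 monocyte markers 7 were 1.5-fold higher (4.18% of all genes were) and 2 lower, with a median of 0.78 in members and -0.03 in other base cells. The 1642 CPM of Plac8 in young members against 952 CPM in adult members gave a log2 ratio of 0.78, against -0.24 in other cells, and Ifitm6 at 35.3 and 6.70 CPM (1.78 against 0.54). Slpi was 2.76-fold higher in young members (2.53 to 3.01) and 1.11-fold in other cells (1.09 to 1.13), and Ccl5, a T cell attractant, 2.61-fold (2.46 to 2.78) and 1.26-fold (1.24 to 1.27). Of 24 interferon genes 11 were higher and 0 lower, with medians of 0.58 in members and 0.41 in other cells, and Rsad2 stood at 201 and 86.5 CPM. Without the cell with most UMIs of each gene, 5 monocyte and 8 interferon genes were higher. Young members had lower scores than adult members, with 110 of 141 in the last class of members against 390 of 859. Levels of Ly6c2 and Plac8 moved with rank. Cluster 2, led by Ccl8, Pf4 and Ifit3, held 26.2% of young and 12.1% of adult members, and cluster 1, led by Apoe, 16.3% and 34.1%. The part of score and of cluster makeup in these differences was not tested.

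Mid1, a ubiquitin ligase, was at 86.5 CPM among young members and 16.6 CPM among adult ones, 5.20-fold higher (4.17 to 6.48), and 4.51-fold higher in other base cells (4.16 to 4.89). Selenom, a selenoprotein, stood at 205 and 63.7 CPM, 3.21-fold (2.82 to 3.65), and 2.92-fold in other cells (2.81 to 3.03), and Rcbtb2 at 87.7 and 33.4 CPM, 2.63-fold (2.16 to 3.18). These 3 genes differed between the libraries about as much outside the members as in them. Other genes at the head of the list rested on few cells. Taken gene by gene, the member with most UMIs held 100% of the young UMIs of Retnla, of S100a9 94.6%, of Lyz1 50.6%, of S100a8 42.0% and of Mt2 33.2%. Without the cell with most UMIs in each library the log2 ratios of young over adult members were -0.049 for Retnla, -1.003 for S100a9, 2.16 for Lyz1, 0.68 for S100a8 and 2.31 for Mt2.

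**Figure D5:**
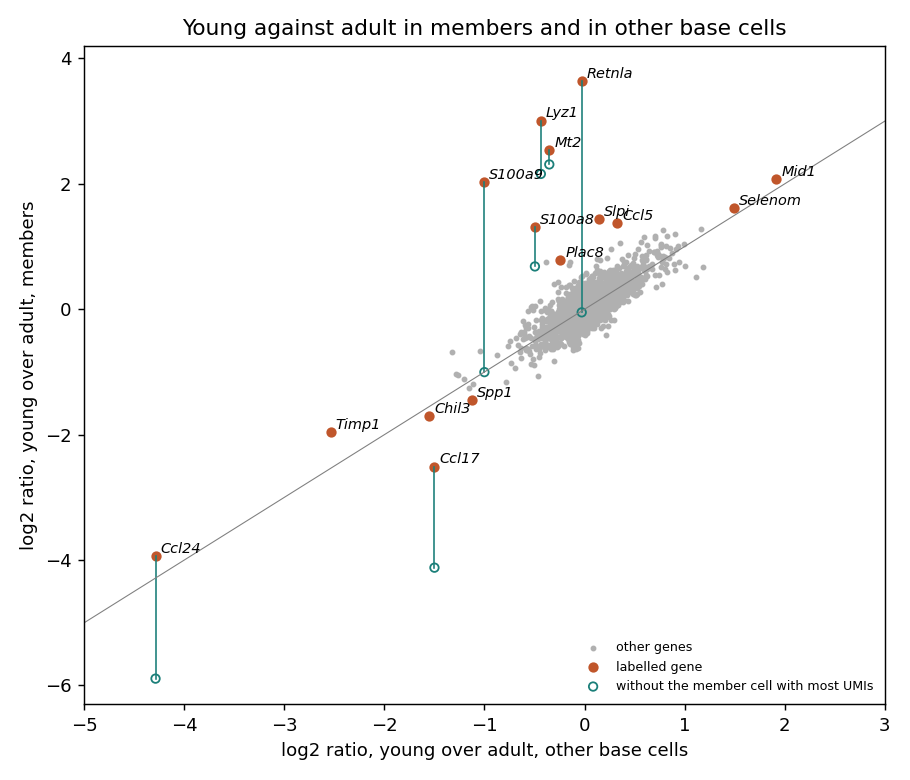
log2 ratio of young over adult in other base cells (horizontal axis) and in members (vertical axis) for genes at 50 CPM or more in members. Filled points are labelled genes, open points are the same genes without the member cell with most UMIs in each library, and the grey line marks equal ratios. Mid1, Selenom, Timp1, Chil3 and Spp1 lie near the line, Slpi, Ccl5 and Plac8 above it at 1.44, 1.37 and 0.78 in members, and Retnla goes from 3.64 to -0.049 without its cell.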

How the data were processed

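For each of 2 libraries the authors deposited unnormalised UMI counts, as whole numbers over 31054 features. They counted with Cell Ranger 3.0.2 on mm10, per the submitters' processing notes. Neither a label nor a header states the annotation or the barcode filter; the lowest barcode held 500 UMIs. Libraries were assigned to age by the sample title. The members and the 37 gene lists (508 genes) were chosen with earlier results of these data known. UMIs were summed over members and over other base cells of each library and expressed per 1000000 (CPM), and log2 ratios used a pseudocount of 5 CPM. Member ratios were averaged over the libraries. A gene counted as 2-fold different at 50 CPM or more, past 2-fold in both libraries (or between ages) with intervals that excluded 1; a listed gene at 10 CPM or more with a mean ratio past 1.5-fold and the same sign in both libraries, or between ages past 1.5-fold with an interval that excluded 1. The score genes, mCherry and genes of mitochondria, ribosomal proteins, haemoglobin and immunoglobulins were not counted. Ratio intervals are conditional binomial, levels Poisson and shares exact binomial. Cells are not replicates, so there are no p-values. Named genes were up to 15 higher and 10 lower in members (fewer met the rule), the 10 largest differences each way between ages and up to 4 of each list; Klrb1b and Qpct as a gene of members, and list genes beyond these 4, were chosen after their values were seen. Members were clustered in scanpy 1.11.5 (1000 variable genes without the score genes, 20 components, 15 neighbours, Leiden resolution 0.5). Doublets were not called, and leaving out the 6% of barcodes with most UMIs was an alternative. Other alternatives varied the number of members, depth, filters, score, reference cells, pooling, weighting, pseudocount and minimum level. A score without Cxcl14, 500 members of each library and leaving out the cell with most UMIs of each gene were added after the data were seen. The last of these took the cell from the members of each library only. Other base cells and UMI totals were left whole, so ratios of members over others can only fall under it. The ratios and calls were tested on simulated counts, drawn as Poisson sums with no spread between cells. That test does not cover genes whose UMIs lie mostly in single cells. Positions are from GENCODE M21 and promoters from RefSeq. Some listed genes are not reported here.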

Additional observations from a re-analysis of the deposited data

Results flagged for a closer look

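In 4 of the genes named or listed, members lay above the other base cells of the young library and below those of the adult library, with intervals that excluded equality in both; this difference between the ages was not tested, as each age is 1 library. For Lyz1, a lysozyme with the near-identical copy Lyz2, the log2 ratios were 2.92 in young and -0.53 in adult, and for Mt2, a metallothionein, 2.24 and -0.65. For S100a9, a calcium-binding protein of neutrophils and monocytes, they were 0.93 and -2.10, and for Egln3, an oxygen-sensing hydroxylase, 0.39 and -0.15. In the young library the member with most UMIs of a gene, taken gene by gene, held 94.6% of those of S100a9, 50.6% of those of Lyz1 and 33.2% of those of Mt2. Without that member the young ratio of S100a9 was -2.31, and those of Lyz1 and Mt2 were 2.03 and 1.66. Lyz1 was detected in 7 of 141 young members and Mt2 in 32. mCherry-rich cells held Mt2 in 93.5% of cells of the young library and 95.2% of the adult; the part of such RNA was not tested.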

How the results depend on the processing

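The adult share of members was the higher under all 8 alternatives that choose other cells over both libraries together, and with 1 library per age no alternative bears on age as such. The young over adult ratio of the shares, 0.130, was 0.0523 with 500 members, 0.270 with 2000, 0.288 with cells thinned to 3000 UMIs, 0.155 with cells without mCherry UMIs, 0.170 with a score over Mgl2 and Mrc1 and 0.0889 with a score without Cxcl14. Genes 2-fold higher in members (3) numbered 5 with 500 members, 1 thinned, 8 with Mgl2 and Mrc1, 1 against the next 1000 cells, 10 with the libraries pooled, 6 at a minimum of 20 CPM, 6 without Cxcl14 and 1 without the cell with most UMIs of each gene. Genes 2-fold lower (2) numbered 13 with 500 members, 26 pooled, 4 without the cell with most UMIs, 1 without the 6% of barcodes with most UMIs, 1 with at most 5% mitochondrial UMIs, 1 without Cxcl14, and 0 with 2000 members, with cells without mCherry UMIs, with 500 members of each library and against the next 1000 cells. Genes higher in young members (24) numbered 14 with 2000 members, 45 with Mgl2 and Mrc1, 38 at 20 CPM, 38 without Cxcl14, 44 with 500 members of each library and 11 without the cell with most UMIs, and genes lower (12) numbered 22 at 20 CPM. The cause of these changes was not tested.

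Of 1486 recomputed values of genes and lists under 15 settings 14 changed sign. For members over others these were Retnla with 500 members (-0.18), thinned (-0.44), without Cxcl14 (-0.079) and without its largest cell (-0.14), and Cxcl14 with Mgl2 and Mrc1 (-0.28) and without Cxcl14 in the score (-0.25). For young over adult members they were Retnla with 500 members (-0.39), without Cxcl14 (-0.50) and without its largest cell (-0.049), Mt2 with 500 members (-0.42), S100a9 with 500 members (-0.57), thinned (-1.31) and without its largest cell (-1.003), and Ccl17 without Cxcl14 (0.41). No paired analysis was possible because each age has 1 library. Depth limits the young values, which rest on 141 cells and 1699797 UMIs against 11485946 UMIs in adult members.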

Other observations

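Cells with 2 or more mCherry UMIs were left out of the base by the rule, and some of them carried the 5 genes as well. Among cells with Csf1r that were so left out, 4 of 348 young and 28 of 287 adult cells reached the score of the last member. A further 22 young and 50 adult cells without a Csf1r UMI reached it. Among members 14.2% of young and 17.7% of adult cells held 1 mCherry UMI, against 15.5% and 15.5% of other base cells.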
